A study of Saccharomyces cerevisiae with 3 samples.

Results

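The *ATG* genes of budding yeast encode the machinery of autophagy, and 34 of the 5449 *S. cerevisiae* genes measured on the arrays carried such a name. They were taken as every gene whose symbol in the platform annotation was *ATG* followed by a number, in capitals, which leaves out the *S. pombe* genes on the same array. The study compared WT yeast with strains lacking *SPT3* (*spt3Δ*) or *SPT8* (*spt8Δ*), which encode subunits of the SAGA coactivator complex that contact TBP. Each strain was measured on 1 Affymetrix Yeast Genome 2.0 array, so the differences have no replicate error and no p-value was computed. Total RNA came from cells growing exponentially in YPD, a rich medium, at 30 °C. The labels give BY4742 as the background of all 3 strains, with each deletion made by a KanMX cassette, and the paper's strain list gives the auxotrophies *his3Δ1*, *leu2Δ0*, *met15Δ0* and *ura3Δ0* with mating type *MATa*.

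Autophagy delivers cytoplasm and organelles to the vacuole, the lysosome-like compartment of yeast, inside a double membrane vesicle called the autophagosome. The Atg1 kinase complex starts the process, a phosphatidylinositol 3-kinase complex marks the membrane, vesicles with Atg9 and the lipid transfer protein Atg2 build it, and a pair of ubiquitin-like proteins, Atg8 and Atg12, are conjugated to lipid and to Atg5 to expand it. Receptors choose cargo for selective autophagy, including the Cvt pathway, which carries vacuolar enzymes in growing cells. In rich medium the TORC1 kinase keeps bulk autophagy low, and *ATG8* and several other *ATG* genes are known to be induced by nitrogen starvation, so the arrays read the basal state.

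For each gene the array gave a signal, a brightness in arbitrary units scaled alike on all arrays, given for WT, *spt3Δ* and *spt8Δ* in this order, and a ratio is the log2 of 1 strain's signal over another's. Signals are shares of the labelled RNA, so a change in the total RNA of a cell cannot be seen. The deleted genes gave signals of 288 in WT and 0.416 in *spt3Δ* for *SPT3*, and of 346 in WT and 5.20 in *spt8Δ* for *SPT8*, in each case below background in the deletion. The α-factor gene *MF(ALPHA)1* had signals of 9816 (WT), 6835 (*spt3Δ*) and 7083 (*spt8Δ*), the a-factor gene *MFA1* had 28.6, 16.5 and 30.3, *LYS2*, which is deleted in BY4742, was not above background on any array, and *MET17*, also named *MET15*, had 6686 or more on all. These values go with the labels and not with the strain list. The background of each array, below which 95% of its *S. pombe* probe sets lay, was 6.67 to 8.61. All 34 *ATG* genes were read by 1 probe set each, none of them shared with another gene, and 33 were above background on all arrays. The exception was *ATG16*, with 3.32 (WT), 6.16 (*spt3Δ*) and 2.67 (*spt8Δ*), for which no fold change is given and which stays in the counts and medians of the 34.

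As a group, the *ATG* genes were centred close to the rest of the genome, and single members differed in direction. In *spt3Δ*, 21 had a higher and 13 a lower signal than in WT, and 61.2% of all genes were higher. Their median log2 ratio was 0.32, against 0.15 for all genes, and it was 0.046 after an intensity-dependent (loess) scaling, which set the median of all genes at −0.0057. It lay above that of all genes under all 8 alternative settings, of which the changed thresholds and centring could not alter the difference. With 50 added to each signal the medians were 0.17 for the members and 0.12 for all genes. Whether the members differ from all genes was not tested. In *spt8Δ*, 18 were higher (52.9%, against 58.9% of all genes) and 16 lower, with a median of 0.019 against 0.067 for all genes. The middle 50% of the members spanned −0.24 to 0.61 in *spt3Δ*, where that of all genes spanned −0.21 to 0.50, and −0.22 to 0.33 in *spt8Δ*, against −0.13 to 0.26. Higher in both mutants were 16 members and lower in both were 11, while 5 were higher in *spt3Δ* alone and 2 in *spt8Δ* alone, among them *ATG26*, with log2 ratios of −0.0053 and 0.0024. Both ratios use the same WT array, so they are not independent of each other.

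**Figure D1:**
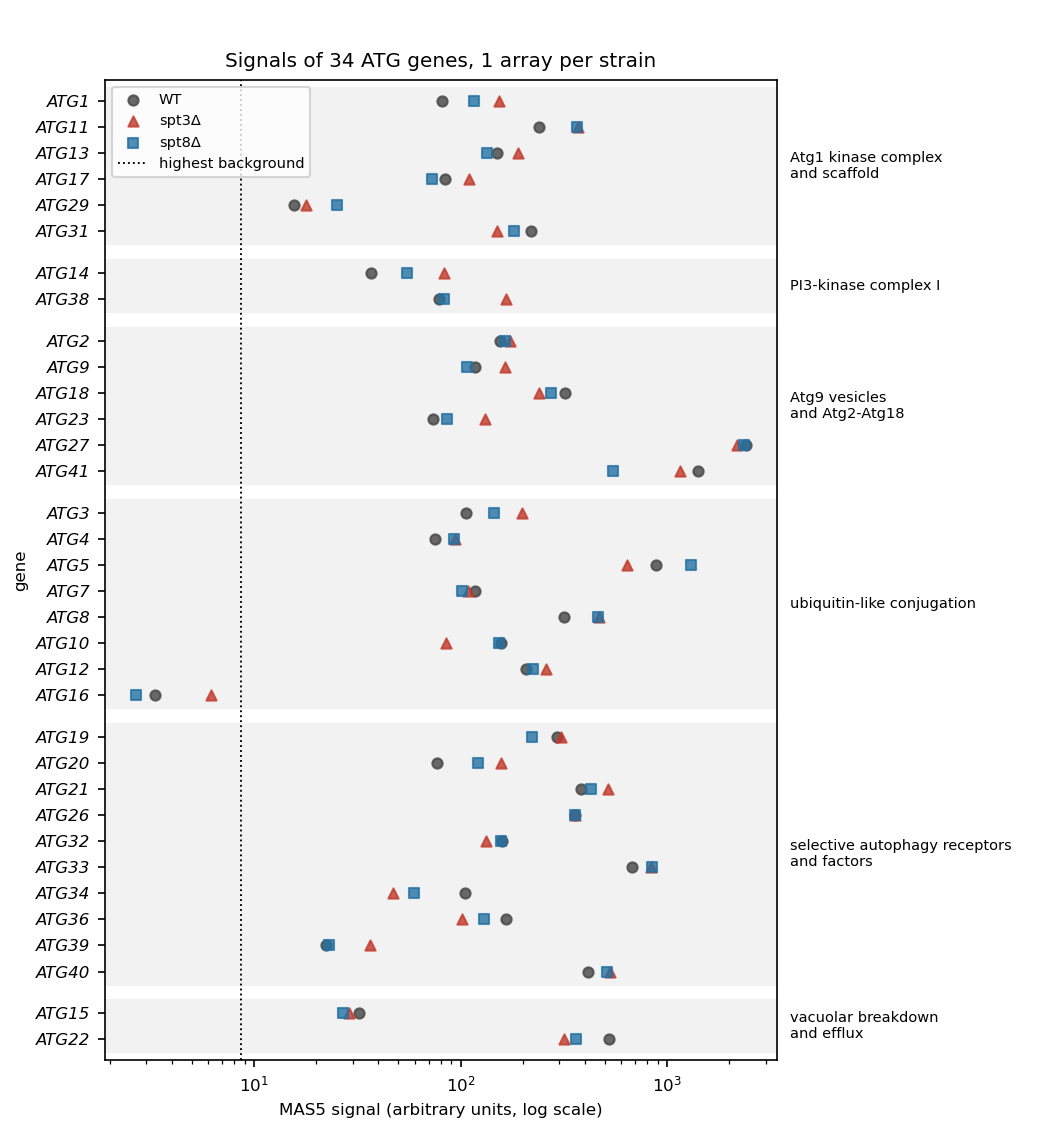
Signal of each of the 34 *ATG* genes on the 3 arrays (x axis, arbitrary units, log scale), grouped by role. Points are single arrays without error bars, and the dotted line is the highest background of the arrays (8.61). *ATG16* alone lies left of the line on all arrays.

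Calls used a rule of the kind the study used, by which a log2 ratio had to lie over 2 SD below (lower) or above (higher) the mean ratio, with both computed here over all 5449 genes. In *spt3Δ* no member passed (limits −1.26 and 1.47), where 2.73% of all genes were called lower and 0.973% higher. In *spt8Δ* only *ATG41* was called lower (limit −0.91) and none was called higher (limit 1.01), against 2.13% and 1.63% of all genes. Thus 1 of 34 (2.94%) in *spt8Δ* is near the share of the whole genome. The lower cut-offs that the study states lie nearer to WT than these limits, and *ATG34* lies beyond them in both mutants. Lower members by those cut-offs were 1 in *spt3Δ* (*ATG34*) and 2 in *spt8Δ* (*ATG34* and *ATG41*), where 3.43% and 2.99% of all genes were lower. Past 2-fold, *ATG14*, *ATG38* and *ATG20* were higher in *spt3Δ* (8.82% of members, against 4.15% of all genes) and *ATG34* was lower (2.94%, against 4.2%). Past 2-fold in *spt8Δ* were *ATG41*, lower (against 1.85% of all genes), and no higher member (1.69% of all genes). Within 0.5 SD of the mean, the range that the study treated as unchanged, were 14 members in *spt3Δ* (41.2%, against 47.8% of all genes) and 12 in *spt8Δ* (35.3%, against 58.4%). With 1 array per strain it was not tested whether these shares differ. Further from WT in *spt3Δ* than in *spt8Δ* were 27 of the 34 (79.4%), near the 76.2% of all genes.

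**Figure D2:**
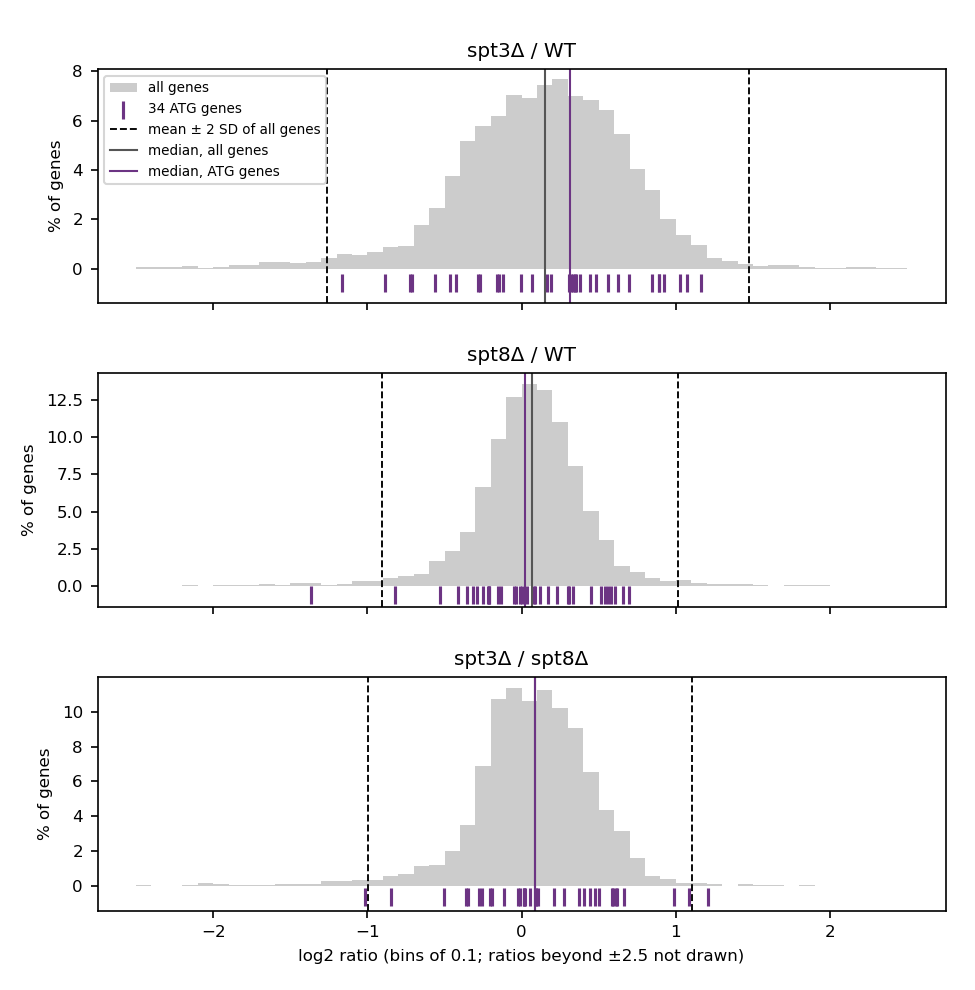
Log2 ratios of all 5449 genes (grey bars, percent of genes per bin of 0.1) and of the 34 *ATG* genes (purple ticks) in *spt3Δ* over WT, *spt8Δ* over WT and *spt3Δ* over *spt8Δ*. Solid lines are medians and dashed lines the limits at 2 SD. Purple ticks spread over the bulk of the grey bars, with *ATG41* beyond the lower limit in *spt8Δ*, and *ATG5* and *ATG16* beyond the limits in the lowest panel.

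Among the genes of the Atg1 kinase complex and its scaffolds, 5 of 6 were higher in *spt3Δ* and 3 of 6 in *spt8Δ*, and none was called. *ATG1*, the protein kinase that starts autophagosome formation, had signals of 81.1 (WT), 154 (*spt3Δ*) and 116 (*spt8Δ*). It was 1.89-fold higher in *spt3Δ*, above 94.4% of all genes, and 1.43-fold higher in *spt8Δ*. *ATG11*, the scaffold of selective autophagy, had 240 (WT), 370 (*spt3Δ*) and 366 (*spt8Δ*), and so was higher by nearly the same ratio in both mutants (1.54-fold and 1.52-fold). The regulatory subunit gene *ATG13*, whose product is a TORC1 substrate, had 149, 190 and 134, or log2 ratios of 0.35 and −0.16.

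The products of *ATG17*, *ATG29* and *ATG31* form 1 stable subcomplex that scaffolds bulk autophagy, but their transcripts did not move together. *ATG17* had signals of 84.4 (WT), 110 (*spt3Δ*) and 72.8 (*spt8Δ*), which put *spt3Δ* above and *spt8Δ* below WT (log2 ratios of 0.38 and −0.21). *ATG29* had 15.6, 17.8 and 25.2, near background, and was highest in *spt8Δ* (1.62-fold above WT). Its coding region overlaps *SET6* in the R64 gene table, and *SET6* had 24.3, 10.1 and 12.1, lower in both mutants. *ATG31* had 220, 149 and 181, and was the only gene of this complex with a lower signal in both mutants, with log2 ratios of −0.56 and −0.29.

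The genes specific to the autophagy form of the phosphatidylinositol 3-kinase complex had the highest ratios of all members in *spt3Δ* on the deposited scale. *ATG14*, the subunit that targets the kinase to the site of autophagosome formation, had signals of 37.0 (WT), 82.7 (*spt3Δ*) and 55.1 (*spt8Δ*). It was 2.24-fold higher in *spt3Δ*, above 98.0% of all genes, and 1.49-fold higher in *spt8Δ*. With 50 added to each signal, which damps the ratios of dim genes, its log2 ratio in *spt3Δ* was 0.61 in place of 1.16, below those of *ATG38* (0.74), *ATG20* (0.70), *ATG3* (0.66) and *ATG1* (0.64). *ATG38*, which holds this complex together, had 78.6, 165 and 83.4, so it stood out in *spt3Δ* (2.10-fold) and was at 1.06-fold in *spt8Δ*. Of its partners under other names, *VPS30*, the yeast Beclin 1 gene also called *ATG6*, had 188, 290 and 202, a log2 ratio of 0.63 in *spt3Δ* and 0.11 in *spt8Δ*. The catalytic subunit gene *VPS34* and its kinase *VPS15*, which also serve a complex of endosomal sorting, had ratios of −0.039 and 0.079 in *spt3Δ* and of −0.056 and 0.027 in *spt8Δ*.

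For the Atg9 vesicles and the Atg2-Atg18 step, *ATG41* was the member with the lowest ratio of all in *spt8Δ*. *ATG41*, also named *ICY2*, whose product acts in autophagosome formation with Atg9, had signals of 1409 (WT), 1157 (*spt3Δ*) and 547 (*spt8Δ*). The array of *spt8Δ* lay 2.58-fold below WT (percentile 1.12 of all genes), and *spt3Δ* lay 1.22-fold below. Under all 8 alternative settings *ATG41* was called lower in *spt8Δ*, with log2 ratios from −1.46 to −1.29, though centring could not change a call. Leaving out genes below background or shared probe sets, or using 2 robust SD, kept its ratio and only loosened the limit. The genes on either side of *ATG41*, *YAH1* and *RPL36B*, had log2 ratios of −0.082 and −0.088 in *spt8Δ*. None of the other 5 was called. *ATG9*, the membrane protein of these vesicles, had 118, 165 and 108, and *ATG23*, needed for their movement, had 73.5, 132 and 86.0, so both were higher in *spt3Δ* (1.40-fold and 1.80-fold) and closer to WT in *spt8Δ* (log2 ratios of −0.13 and 0.23). *ATG18*, which binds phosphatidylinositol 3-phosphate, had 321, 239 and 276, and was lower in both. *ATG2* had 155, 175 and 165, and *ATG27*, an Atg9 trafficking factor, had 2423, 2170 and 2345, both with log2 ratios between −0.16 and 0.17.

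**Figure D3:**
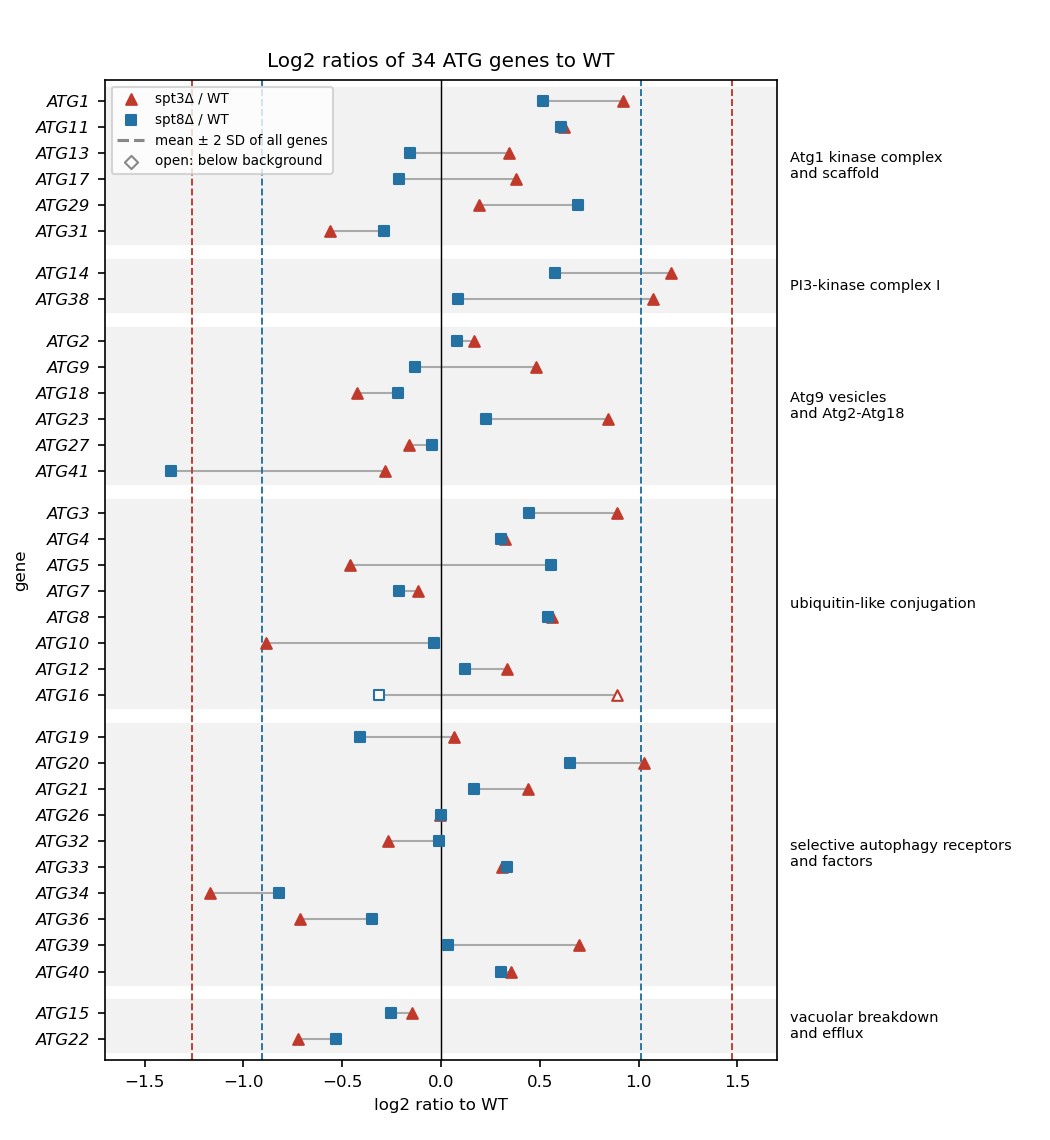
Log2 ratio to WT of each *ATG* gene in *spt3Δ* (red triangles) and *spt8Δ* (blue squares), grouped by role, with a grey line joining both and open symbols for *ATG16*, below background on all arrays. Dashed lines are the limits at 2 SD in the colour of the strain. *ATG41* in *spt8Δ* (−1.37) is the only point outside its own limits, and *ATG5* has points on opposite sides of 0 (−0.46 and 0.56).

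Of the 8 ubiquitin-like conjugation genes, 5 were higher in *spt3Δ* and 5 in *spt8Δ*, and none was called against WT. *ATG8*, the ubiquitin-like protein of the autophagosome membrane, had signals of 317 (WT), 468 (*spt3Δ*) and 461 (*spt8Δ*), log2 ratios of 0.56 and 0.54. *ATG3*, its conjugating enzyme, had 107, 198 and 145 (1.86-fold and 1.36-fold higher). *ATG4*, the protease that processes Atg8, had 75.3, 94.2 and 93.1. Thus the Atg8 protease, the Atg8 conjugating enzyme and Atg8 itself all had higher signals in both mutants, inside the limits. *ATG7*, the activating enzyme of both branches, had 118, 109 and 102, with log2 ratios of −0.12 and −0.21.

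On the Atg12 branch, *ATG5* was lower in 1 mutant and higher in the other. *ATG5*, the target to which Atg12 is joined, had 884 (WT), 642 (*spt3Δ*) and 1301 (*spt8Δ*), and these signals lie far above background. The log2 ratios were −0.46 for *spt3Δ* and 0.56 for *spt8Δ*, neither of them called. *ATG10*, the conjugating enzyme for Atg12, had 157, 85.0 and 153, and so was 1.84-fold lower in *spt3Δ* (percentile 5.03 of all genes) and at a log2 ratio of −0.033 in *spt8Δ*. *ATG12* had 207, 260 and 225, with log2 ratios of 0.33 (−0.0092 after loess) and 0.12, and *ATG16*, the partner of the Atg5 conjugate, was not measurable here. The 3 measured genes of this branch therefore had 3 different patterns.

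Receptors and other factors of selective autophagy numbered 10, of which 6 were higher in *spt3Δ*, 6 were higher in *spt8Δ*, and none was called. *ATG34* and *ATG19* are neighbouring genes on chromosome XV that encode related receptors of selective autophagy. *ATG34* had signals of 105 (WT), 47.0 (*spt3Δ*) and 59.7 (*spt8Δ*), and was 2.25-fold and 1.77-fold lower. It was the lowest member in *spt3Δ* (percentile 3.19 of all genes) and second to *ATG41* in *spt8Δ* (percentile 2.61), inside the 2 SD limits in both and past the lower cut-offs stated by the study. When genes below background were left out, the limits moved to −1.06 and −0.71 and *ATG34* was called lower in both mutants. *ATG19*, the receptor of aminopeptidase I, had 294, 308 and 221, a log2 ratio of 0.068 in *spt3Δ* and −0.41 in *spt8Δ*, and so did not share the low value of its neighbour in *spt3Δ*. The gene on the other side of *ATG34*, *PHM7*, had log2 ratios of −0.57 and −0.070.

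*ATG20*, a sorting nexin of the Cvt pathway, had 76.8 (WT), 157 (*spt3Δ*) and 121 (*spt8Δ*), 2.04-fold and 1.57-fold higher. Its dimer partner *SNX4*, also called *ATG24*, had 226, 431 and 292, with log2 ratios of 0.93 and 0.37, so the pair had the same order of strains. *ATG36*, the receptor for peroxisomes, had 166, 101 and 130, lower in both mutants (1.64-fold and 1.28-fold). The mitophagy receptor gene *ATG32* had 159, 132 and 158, and *ATG33*, another mitophagy factor, had 675, 835 and 850, or log2 ratios of −0.27 and −0.011 for *ATG32* and 0.31 and 0.33 for *ATG33*. Receptors of nuclear envelope and ER autophagy, *ATG39* and *ATG40*, gave 22.4, 36.4 and 23.0 and 413, 528 and 509, respectively. *ATG39* was thus 1.62-fold higher in *spt3Δ*, from a dim signal, and at a log2 ratio of 0.036 in *spt8Δ*, while *ATG40* was higher in both by 1.28-fold and 1.23-fold. *ATG21*, a phosphoinositide binding protein, had 382, 519 and 429. *ATG26*, a sterol glucosyltransferase, had 358, 357 and 359, the most even signals of all members.

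The 2 members that act after delivery to the vacuole had lower signals in both mutants on the deposited scale. *ATG22*, an amino acid exporter of the vacuole, had 524 (WT), 317 (*spt3Δ*) and 363 (*spt8Δ*), 1.65-fold and 1.44-fold lower. *ATG15*, the lipase that breaks down autophagic bodies, had 32.1, 29.0 and 26.9, or log2 ratios of −0.15 and −0.25. Neither was called, and *ATG15* in *spt3Δ* changed sign to 0.19 after quantile normalization.

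The direct ratio of both mutants does not use the WT array. By it, *ATG5* was called lower in *spt3Δ* than in *spt8Δ*, by 2.03-fold (log2 ratio −1.02, limit −0.997), where 2.62% of all genes were called lower. Its value ranged from −1.13 to −0.96 over the 8 alternative settings and was called in each, though centring could not change a call. Leaving out genes below background or shared probe sets, or using 2 robust SD, kept its ratio and only loosened the limit. The neighbours of *ATG5*, *YPL150W* and *PPT2*, had direct log2 ratios of 0.26 and −0.25. *ATG16* was called higher (0.844% of all genes), on signals not above background on either array, and was not called with 50 added to each signal. The values nearest to the limits on the inner side were *ATG41* (1.08, limit 1.10), *ATG38* (0.99) and *ATG10* (−0.85). *ATG41* was therefore 2.12-fold higher in *spt3Δ* than in *spt8Δ* and *ATG10* 1.80-fold lower. Past 2-fold the higher members were *ATG41* and *ATG16*, where 1.01% of all genes were higher, and *ATG5* was the only lower one. Within 0.5 SD of the mean were 14 members (41.2%, against 56.6% of all genes). The median of the members was 0.089, against 0.086 for all genes.

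None of the *ATG* genes was among the 8 outermost probed genes of a chromosome end, and the member closest to an end lay at place 15. This cut counts probed genes, while the paper set its subtelomeres by distance from the telomere. The share of all genes at these places is not given here, so the count is not read as a trait of the members. The members lie on 13 chromosomes, and *ATG19* and *ATG34* were the only ones next to each other among the probed genes.

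Other genes of the pathway, which carry other names, showed no called change in either mutant. Of 64 measured genes in 5 lists, none passed the limits in *spt3Δ*, in *spt8Δ* or in the direct ratio, and 1 passed 2-fold. Among all genes, 2.73% and 0.973% passed the lower and the upper limit in *spt3Δ*, and 4.2% and 4.15% passed 2-fold. In *spt8Δ* these shares were 2.13% and 1.63% for the limits and 1.85% and 1.69% for 2-fold. In the direct ratio they were 2.62% and 0.844% for the limits and 2.62% and 1.01% for 2-fold. With shares this small, few calls would be expected in any list of 64 genes. The gene past 2-fold was *PHO23*, a subunit of the Rpd3 deacetylase complex that represses *ATG* genes such as *ATG9*, with 209 (WT), 419 (*spt3Δ*) and 262 (*spt8Δ*) (log2 ratio 1.01 in *spt3Δ*). *UME6*, which recruits that deacetylase to *ATG8*, had 262, 362 and 334, and *RPH1*, a histone demethylase and repressor of several *ATG* genes, had 206, 200 and 216. Over the 14 transcription regulators the medians were −0.029 for *spt3Δ* and −0.056 for *spt8Δ*. Over the 16 TORC1, PKA and Snf1 genes it was 0.16 and 0.0088, near the medians of all genes.

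Fusion genes, which encode the SNAREs, Rab and tethers that join the autophagosome to the vacuole, had medians of 0.45 in *spt3Δ* and, with 9 of 16 below WT, −0.013 in *spt8Δ*. The lowest and the highest of the 16 were −0.20 (*SEC18*, the SNARE-disassembling ATPase) and 0.83 (the SNARE gene *VTI1*) in *spt3Δ*. Vacuolar hydrolases and Cvt cargo had medians below 0 in both mutants, −0.23 in *spt3Δ* and −0.13 in *spt8Δ* over 11 genes, of which 8 and 7 were lower than WT. Of all 5449 genes, 2115 in *spt3Δ* and 2241 in *spt8Δ* were lower than WT, with medians of 0.15 and 0.067. Whether either list differs from all genes was not tested. Medians of the lists are given on the deposited scale only. In *spt3Δ*, loess took the median of the *ATG* genes from 0.32 to 0.046 and that of all genes from 0.15 to −0.0057. *APE1*, the aminopeptidase that is the main Cvt cargo, had 699, 519 and 618, and *PEP4*, the master protease of the vacuole, had 6733, 5433 and 6029, both in the same order of strains. *PHO8*, the vacuolar alkaline phosphatase used in assays of autophagy and also a phosphate gene, had 2513, 1639 and 1538, with log2 ratios of −0.62 and −0.71. Others of the list were higher, among them the peptidase genes *CPS1* (0.064 in *spt3Δ* and 0.26 in *spt8Δ*) and *LAP3* (0.24 and 0.20) and the mannosidase gene *AMS1* (0.10 and 0.19). The protease gene *PRB1* had −0.13 in *spt3Δ* and 0.39 in *spt8Δ*.

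**Figure D4:**
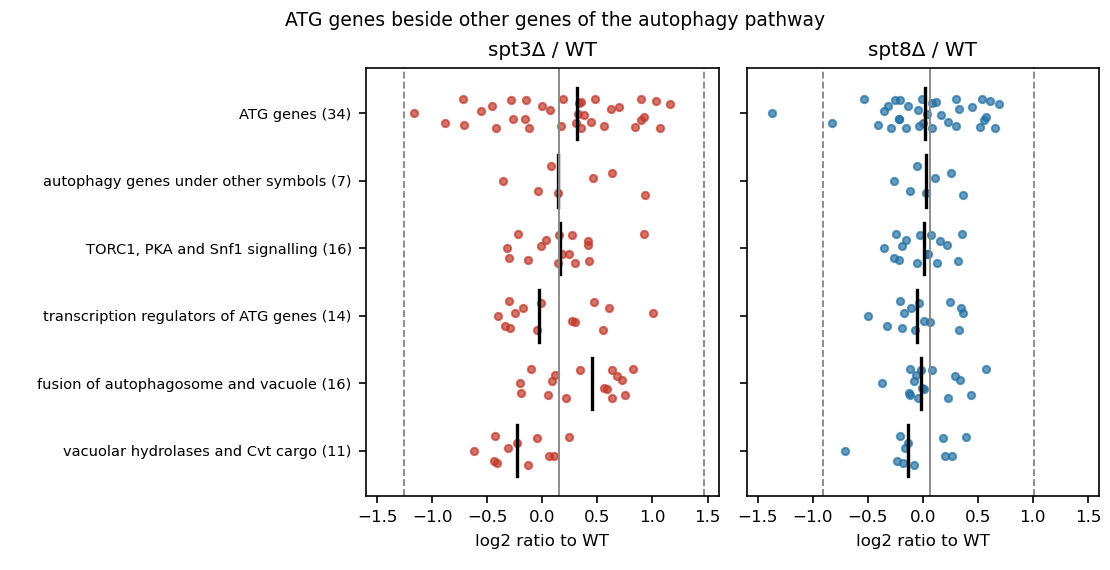
Log2 ratio to WT of the *ATG* genes and of 5 lists of other genes of the pathway (number of genes in brackets), in *spt3Δ* (left) and *spt8Δ* (right). Points are genes, black bars the medians of the lists, the solid grey line the median of all genes and dashed lines the limits at 2 SD. Outside the *ATG* genes no point lies past a limit, and the hydrolases lie mostly below 0 (8 of 11 in *spt3Δ*, against 2115 of all 5449 genes).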

How the data were processed

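The authors hybridized RNA of WT, *spt3Δ* and *spt8Δ* to 1 Affymetrix array each and deposited MAS5 intensity values, 1 linear signal per probe set, made with Microarray Suite 5.0 at default settings and scaled to trimmed means of 500.4, 500.3 and 500.3. The processing notes also name Affymetrix Expression Console, whose version is not given in the sources used here. Detection calls were not used here. Of 10928 probe sets, 5498 had 1 *S. cerevisiae* gene and 1746 1 *S. pombe* gene. Where 1 gene had several probe sets their log2 signals were averaged, giving 5449 genes, and symbols were checked against the R64 gene table (12 updated, none of them of a member). Ratios were computed in Python 3.11.15 with numpy 2.4.6, pandas 2.3.3 and statsmodels 0.14.6.

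The members, role groups, 5 companion lists and the naming rule were chosen with earlier results of these data known. By that rule all members could be named, and companions past the limits; the companions named here were picked after their values were seen. A listed companion is not reported here. Alternatives were quantile and loess (span 0.3) normalization, centring on the median of all genes, genes above background on both arrays only, 50 added to each signal, a threshold of 2-fold or of 2 robust SD, and no shared probe sets. The lower cut-offs that the study states were added after the data were seen. The number of arrays limits the precision. The only repeat within an array was that of 47 genes with several probe sets, whose log2 ratios differed by a median range of 0.21 in *spt3Δ* and 0.20 in *spt8Δ* (90th percentile 1.11 and 1.36); only 2 of the 47 had no shared probe set. Promoter and protein sequences were not used here.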

Additional observations from a re-analysis of the deposited data

Results flagged for a closer look

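*ATG5* and *ATG17* lay on opposite sides of WT in the 2 mutants, each time by more than the median range between probe sets of 1 gene (0.21 and 0.20). That range was measured within arrays and leaves out the spread between them, and its 90th percentile was 1.11 in *spt3Δ* and 1.36 in *spt8Δ*, more than any of these ratios to WT. *ATG5* was at −0.46 in *spt3Δ* and 0.56 in *spt8Δ*, a difference of −1.02 on the log2 scale. *ATG17* was at 0.38 in *spt3Δ* and −0.21 in *spt8Δ*, a difference of 0.59. With 1 array per strain neither difference was tested.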

How the results depend on the processing

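The calls of *ATG41* in *spt8Δ* and of *ATG5* in the direct ratio held under all 8 alternatives. Not all of these could change them. Centring cannot alter a call by 2 SD, since the limits move with the ratios. The changed thresholds, the exclusion of shared probe sets and that of genes below background left the ratio of every member kept as it was. Without genes below background, lower calls numbered 1 in *spt3Δ* (*ATG34*), 2 in *spt8Δ* (*ATG34* added) and 2 in the direct ratio (*ATG10* added), where higher calls were 2 (*ATG38* and *ATG41*, without *ATG16*). A 2-fold threshold gave 1 lower and 3 higher members in *spt3Δ*, and 2 higher in the direct ratio (*ATG16* and *ATG41*). With 2 robust SD, 1 was lower in *spt3Δ*, 3 were lower and 2 higher in *spt8Δ*, and 2 were lower and 3 higher in the direct ratio; this threshold also called 265 and 306 of all genes lower in *spt3Δ* and *spt8Δ*. The lower cut-offs stated by the study, added after the data were seen, gave 1 lower member in *spt3Δ* and 2 in *spt8Δ*. Quantile normalization added *ATG16*, not above background, to the lower calls in *spt8Δ* (2 in all). With 50 added, *ATG10* joined *ATG5* (2 lower) in the direct ratio and *ATG41* replaced *ATG16*. The median of the members went to 0.046 in *spt3Δ* with loess, and to −0.063 (quantile) and −0.071 (loess) in the direct ratio. Over the 8 settings the ratio kept its sign in 30 of 34 members in *spt3Δ*, 31 in *spt8Δ* and 27 in the direct ratio. Only quantile normalization, loess and centring could turn a sign, and the other settings could not. Of the members that turned, *ATG12* in *spt3Δ* had the largest ratio (0.33, and −0.0092 with loess). Only *ATG16* was not above background, but other dim members were also limited by their signal. With 50 added, *ATG29* in *spt8Δ* went from 0.69 to 0.20 and *ATG39* in *spt3Δ* from 0.70 to 0.25.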

Other observations

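*ATG41* is known as a target of the activator Gcn4, whose own gene had signals of 9123 (WT), 7413 (*spt3Δ*) and 7918 (*spt8Δ*). Of 16 amino acid synthesis genes known as Gcn4 targets, a list chosen after values were seen, 13 were lower in *spt8Δ* and 11 in *spt3Δ*, with medians of −0.25 and −0.14, where 2241 and 2115 of all 5449 genes were lower. *ARG1* and *ARG3*, of arginine synthesis, were called lower in *spt8Δ* (log2 ratios of −2.57 and −1.79) and had ratios of −0.091 and −0.15 in *spt3Δ*, the same order of strains as *ATG41* (−1.37 and −0.28). These 2 of 16 were the called ones, against 2.13% of all genes, and the other 14 were not called in either mutant. Since the list was chosen after values were seen, its counts and medians cannot be weighed against those of all genes. *TRP2*, *TRP3* and *LYS9* were higher than WT in *spt8Δ* (0.19, 0.21 and 0.19). Whether Gcn4 has a part in the value of *ATG41* was not tested. *ARG4*, of the same pathway, differed in being higher in *spt3Δ* (0.68) and lower in *spt8Δ* (−0.74). The direct ratio called 3 of the 16 higher, *ARG1* (2.48), *ARG3* (1.65) and *ARG4* (1.43), where 0.844% of all genes were called higher.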
